A study of Mus musculus with 6 samples.

Results

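The p53 pathway was followed in L929, a fibroblast line from mouse connective tissue, through 34 genes that encode p53, its regulators and its targets in cell cycle arrest, apoptosis and DNA repair. The 34 members were taken by gene symbol from a table of 27507 genes, and all 34 were found. Poly(A) RNA was sequenced from 3 control libraries (genotype WT) and 3 libraries of STING KO cells, described by the series as Sting-/-. The labels name no treatment, dose or time for either group and do not say whether the STING KO cells are 1 clone or a pool. The labels do not say that replicates come from separate cultures. The p-values therefore reflect variation among these 6 libraries, part or all of which may be technical.

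p53 is a transcription factor that is kept at a low level by the ubiquitin ligase MDM2 and is held inactive by MDM4. DNA damage and other stresses release it, and it then switches on genes that stop the cell cycle, start apoptosis or repair DNA, MDM2 among them, which closes a feedback loop. STING is an adaptor in the endoplasmic reticulum membrane that relays the signal of the cytosolic DNA sensor cGAS. The series compares gene expression with and without STING.

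Values are taken to be gene counts scaled by the authors with 1 size factor per library. They are here called normalized counts, with totals of 14382072 to 14526606 per library. Sting1 itself (Tmem173 in the table) was at 329, 313 and 311 normalized counts in control and at 82.1, 80.6 and 93.4 in STING KO, which goes with the labels of all 6 libraries. Fibroblast markers summed to 184005 to 196023 in control and 197565 to 211552 in STING KO, with 9 to 11 of the 11 at 10 or more in each library and Lum and Dcn at 0 in some. Hepatocyte markers summed to 5164 in control replicate 3 and 4820.1 in STING KO replicate 1, against 222 to 615 in the other 4 libraries, with none of the 10 markers at 0 in any library. Macrophage and leukocyte markers summed to 768 to 899 in control and 821 to 962 in STING KO, mostly Cd68, with Itgam, Adgre1, Fcgr3 and Aif1 at 0 in some libraries. Lyz2 was at 97.4 in control replicate 3 and 71.3 in STING KO replicate 1 against 16 to 22.1 in the others, and the fibroblast markers Dcn (94.4 and 32.7 against 0 to 4.99) and Lum (31.8 and 11.9 against 0 to 0.998) were highest in the same pair. Because control replicate 3 and STING KO replicate 1 stand apart in these markers, the counts of members are also given without both.

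The p53 protein binds DNA directly through repeats of a 10-base element known as the p53 half-site, a C and a G around an A/T core with purines before and pyrimidines after. It was searched in RefSeq promoter windows (GRCm38.p6) that run from 250 bases before to 50 after an annotated start, where 26 of the 34 members had an entry. Of these 26, 10 held at least 1 match (38.5%), beside 8.17% of the 9839 tested genes in that promoter table. Counted by window, 31.4% of 35 member windows and 6.87% of 12519 windows of tested genes held a match. The element reads the same on both strands, so 1 search covers both. The members have 1 or more windows each, and a match is a description of letters, not of binding.

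The matches in these 10 genes, 1 each and 2 in Cdkn1a, are shown because they are the sequence feature that these members share near their starts. Each stretch is on the strand of its gene, 5′ to 3′, with 10 bases either side in lower case and the match in capitals.
Trp53 (chr11:69580274-69580303, plus strand): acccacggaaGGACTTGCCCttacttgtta
Mdm2 (chr10:117710925-117710954, minus strand): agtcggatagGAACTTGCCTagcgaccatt
Ppm1d (chr11:85311112-85311141, plus strand): gggcgggggcGAGCTTGCTCttcttgactc
Cdkn1a (chr17:29090896-29090947, plus strand): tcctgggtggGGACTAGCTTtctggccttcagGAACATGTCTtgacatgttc
Ccng1 (chr11:40755452-40755481, minus strand): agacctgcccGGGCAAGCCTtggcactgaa
Sesn1 (chr10:41887256-41887285, plus strand): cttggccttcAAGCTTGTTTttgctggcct
Bax (chr7:45467080-45467109, minus strand): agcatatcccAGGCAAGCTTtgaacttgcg
Aen (chr7:78895927-78895956, plus strand): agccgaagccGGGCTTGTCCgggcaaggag
Ei24 (chr9:36797325-36797354, minus strand): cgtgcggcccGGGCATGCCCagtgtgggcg
Polk (chr13:96519399-96519428, minus strand): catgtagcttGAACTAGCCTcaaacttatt

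Cdkn1a was the 1 member with a pair of matches no more than 13 bases apart, which 0.0508% of the tested genes had. Its matches are 12 bases apart and lie just before the first of its annotated starts (base 29090979 of chromosome 17), and 2863 and 2841 bases before the other. The 10 bases directly after the second match differ from the element at 1 letter and were not counted.

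None of the members was called changed. Genes that reached 10 normalized counts in 3 or more libraries were tested with limma (mean-variance trend) after adding 0.1 and taking log2. A gene was called at an adjusted p (Benjamini-Hochberg over all 12408 genes tested) at or under 0.05. Over all genes this called 0.258% lower and 0% higher. Of the 34 members, 31 passed the minimum, and limma called 0 of them, with 7 lower and 3 higher at an unadjusted p at or under 0.05. At that unadjusted threshold 3.18% of all tested genes were lower and 3.20% higher. limma-voom also called 0 members. The smallest adjusted p of a member was 0.143, for Susd6.

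For most members the interval of the fold change was narrow. It reflects the spread among these libraries only, so it does not bound the change in other cultures or clones. The 95% interval of the fold change lay within 1.5-fold in both directions for 28 of the 31 tested members, as it did for 85.4% of all tested genes. The 3 others were Eda2r, Trp53i11 and Ddb2, which had the fewest counts of the tested members, and all 31 lay within 2-fold. The sign was negative for 21 and positive for 10, where 50.8% of all tested genes were negative. The median log2 fold change of the members was -0.067, beside -0.003 over all tested genes. Each value is a sum over cells, so fewer cells with a transcript and less of it per cell cannot be told apart.

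**Figure D1:**
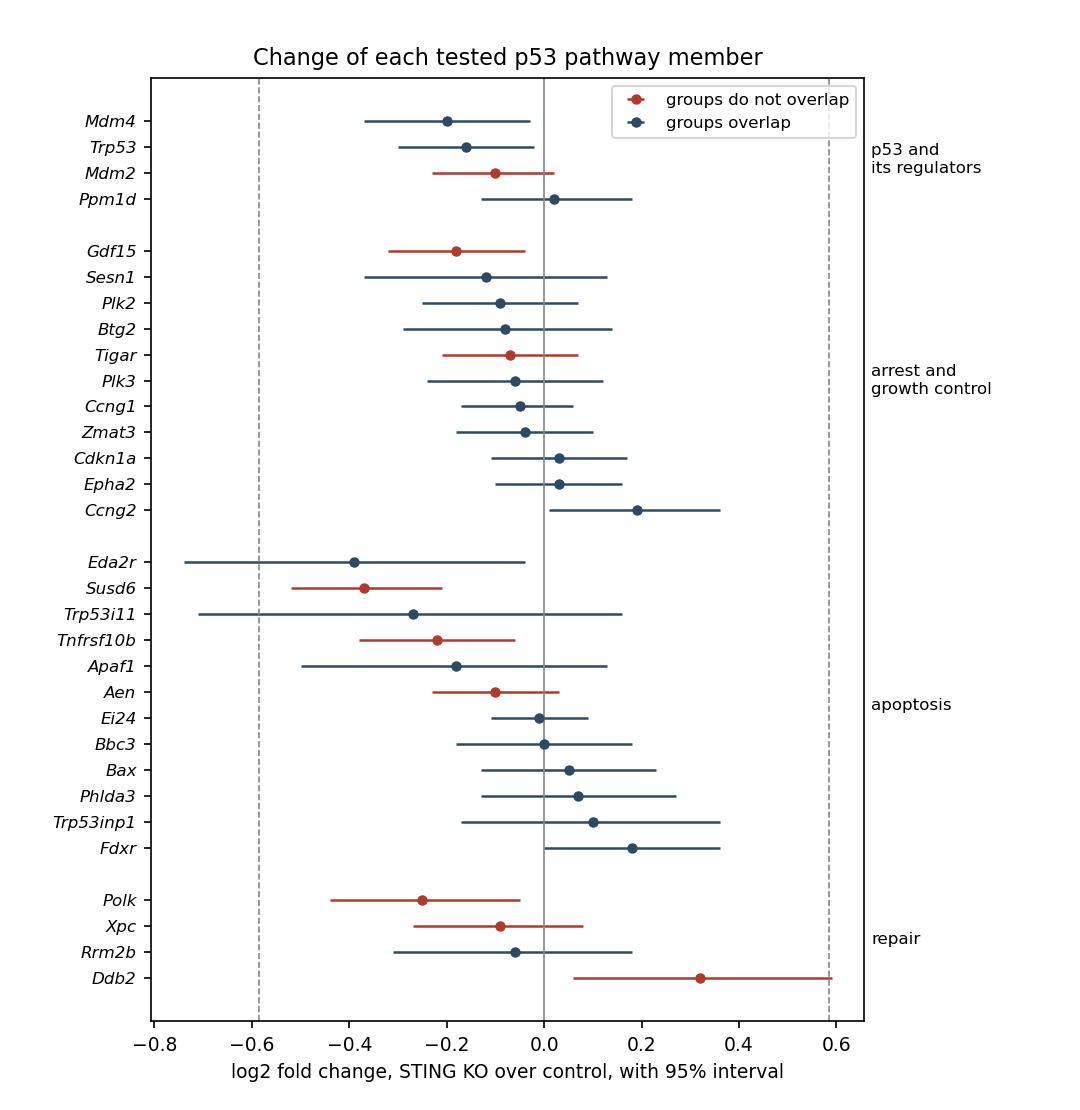
Change of the 31 tested members in STING KO relative to control (log2, x axis), by role, with 95% intervals from limma (3 libraries per group). Dashed lines mark 1.5-fold. Red points are members whose libraries do not overlap between the groups. The largest values are those of Eda2r (-0.39) and Susd6 (-0.37) on the left and of Ddb2 (0.32) on the right.

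The groups did not overlap for 9 members, with STING KO below control for 8 (Susd6, Tnfrsf10b, Polk, Gdf15, Mdm2, Aen, Xpc and Tigar) and above it for 1 (Ddb2). Over all tested genes 6.32% lay below without overlap and 5.76% above. Without control replicate 3 and STING KO replicate 1, the 2 libraries with the most hepatocyte transcripts, 10 members lay below and 2 above, beside 14.1% and 12.8% of the genes tested then. At an unadjusted p at or under 0.05 there were 1 lower and 2 higher in that fit (all genes 1.26% and 1.32%), and the median log2 fold change was -0.058. Of the 9 members, 6 had a promoter entry. Among those 6, 3 (Polk, Mdm2 and Aen) held the p53 element printed above, beside 38.5% of the 26 members with an entry.

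**Figure D2:**
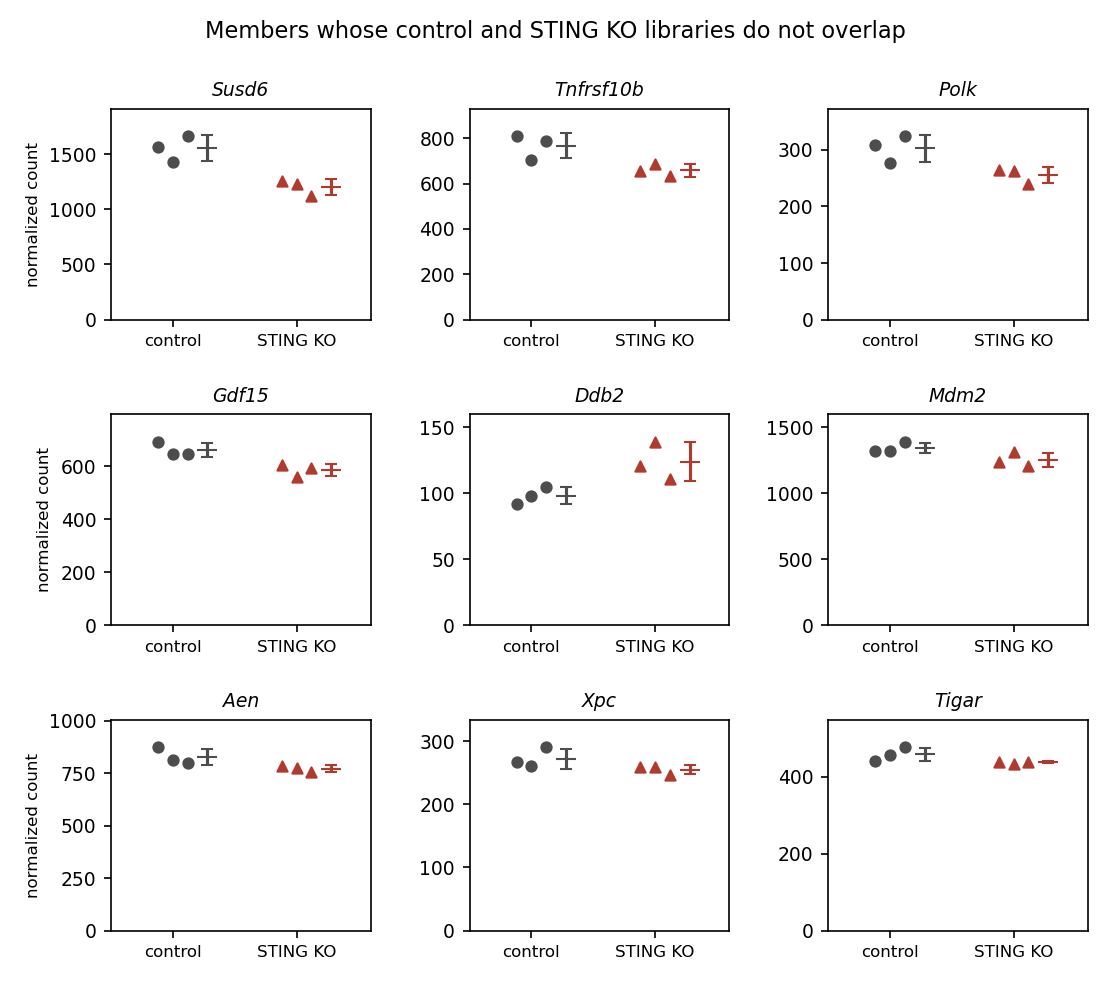
Normalized counts in each library for the 9 members whose groups do not overlap, with the mean and SD of each group (n = 3) beside the points. Axes start at 0. STING KO lies below control in 8 panels and above it for Ddb2, and in several panels the nearest libraries are close together, as for Tigar, at 441 in control and 439 in STING KO.

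Among p53 and its regulators, 4 of 5 members were tested, and the transcript of p53 itself had overlapping groups. Trp53 (ENSMUSG00000059552, chr11:69580359-69591873, plus strand in GRCm38) was at 3228, 3377 and 3067 normalized counts in control and at 2894, 2676 and 3101 in STING KO. STING KO replicate 3 lay above control replicate 3. The means were 3224 ± 155 and 2890.4 ± 212 (SD, n = 3 each), or -0.16 on the log2 scale (limma adjusted p = 0.738, SE 0.06). RNA does not report the amount or activity of p53, which is set mainly at the level of the protein.

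Mdm2, the ubiquitin ligase and feedback target, was at 1319.9, 1321 and 1388 in control and at 1235, 1308 and 1205 in STING KO. Its groups were separate but close, and the means of 1343 ± 39.0 and 1249 ± 53.1 (SD, n = 3 each) give a log2 fold change of -0.10 (limma adjusted p = 0.738). Mdm4, the inhibitor that masks the activation domain of p53, was at 1427, 1268 and 1373 in control and at 1182, 1291 and 1071 in STING KO. One library of each group crossed over, and the log2 fold change was -0.20 (limma adjusted p = 0.738, SE 0.08). Ppm1d, the phosphatase WIP1 that turns the damage response off, was at 386 ± 9.09 and 392 ± 19.9 (SD, n = 3 each).

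Cdkn2a, whose alternative product ARF blocks MDM2, was listed at 0 in all 6 libraries. At these totals a count of 0 allows up to 3 counts per library, or 0.207 to 0.209 CPM, counting error only. Its neighbour Cdkn2b, another CDK inhibitor gene, had about 1 normalized count in control replicate 3 and STING KO replicate 1 and 0 in the others. The bound takes it that reads of Cdkn2a are counted where present, which was not tested. Nek2, a gene of the cell cycle list below, was also at 0 in all 6 libraries. The 24 tested genes of that list had control means of 526 or more.

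The arrest and growth control genes differed little between the groups. All 11 passed the minimum, and each had a 95% interval within 1.5-fold. Cdkn1a, the CDK inhibitor p21 and the main effector of p53 arrest, was at 2114, 2413 and 2309 in control and at 2308, 2211 and 2444 in STING KO. The groups were intermingled, with a log2 fold change of 0.03 and a 95% interval of -0.11 to 0.17 (limma adjusted p = 0.901). Ccng1, an abundant cyclin G that feeds back on MDM2, was at 3871 ± 103 and 3737 ± 184 (SD, n = 3 each). Epha2, an ephrin receptor kinase, was at means of 1153 and 1177, at a log2 fold change of 0.03.

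Gdf15 and Ccng2 had the largest values of this group, in opposite directions. Gdf15, a secreted stress cytokine, was at 692, 647 and 648 in control and at 606, 561 and 592 in STING KO. All STING KO libraries lay below all control libraries, with a log2 fold change of -0.18 (limma adjusted p = 0.738, SE 0.06). Ccng2, a cyclin G linked to growth arrest and also a target of FOXO factors, was at 834, 862 and 935 in control and at 931, 1104 and 961 in STING KO. STING KO replicate 1 lay just under the highest control library, and the log2 fold change was 0.19 (limma adjusted p = 0.738, SE 0.08).

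The remaining arrest genes lay closer to the control mean, Sesn1 furthest from it at 91.6%. Tigar, which lowers glycolytic flux, was at 441, 457 and 476 in control and at 439, 434 and 438 in STING KO. Its groups were separate only by the narrow spread of STING KO (SD 2.75), at a log2 fold change of -0.07. Btg2 (181 and 172 normalized counts), the kinase genes Plk2 (348 and 327) and Plk3 (304 and 291), the antioxidant gene Sesn1 (312 and 286) and the RNA-binding protein gene Zmat3 (673 and 656) had negative log2 fold changes between -0.12 and -0.04, with overlap.

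**Figure D3:**
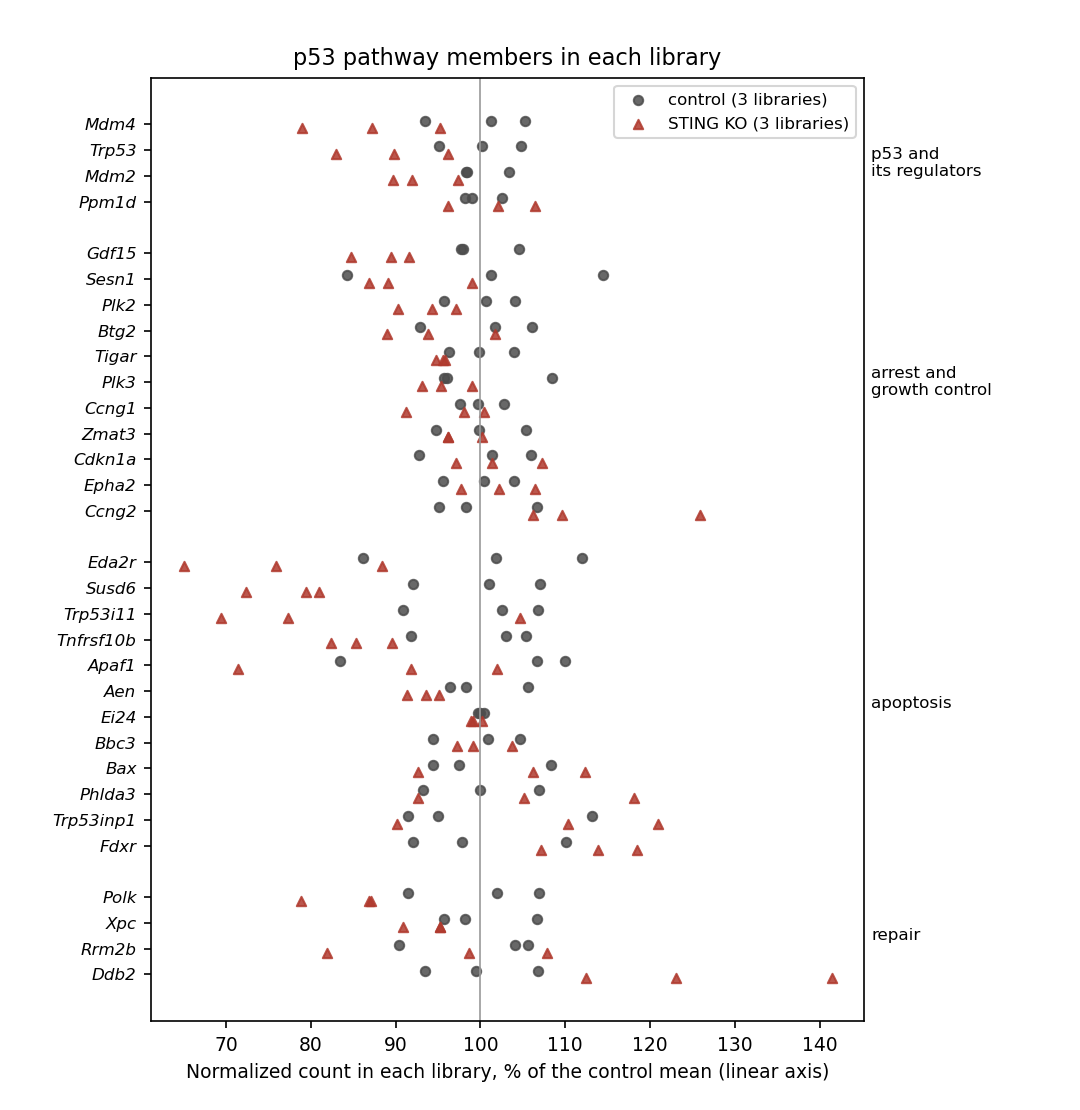
Normalized count of each tested member in each of the 6 libraries, as a percentage of the control mean of that gene, by role. Circles are control and triangles are STING KO. Circles and triangles overlap for all but 9 members. Of those 9, 8 have all 3 triangles to the left of the circles, Susd6 among them, and Ddb2 has all 3 to the right.

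Within the apoptosis group Susd6 had the smallest p. Susd6 encodes a membrane protein with a sushi domain that p53 induces after DNA damage. The gene (ENSMUSG00000021133, chr12:80790510-80880835, GRCm38, plus strand, a protein-coding gene) was at 1567, 1428 and 1660 in control and at 1257, 1232 and 1123 in STING KO. Every STING KO library was below every control library, and the means of 1552 ± 117 and 1204 ± 71.3 (SD, n = 3 each) leave 77.6% of control. The log2 fold change was -0.37 (SE 0.07, 95% interval -0.52 to -0.21), with an unadjusted p of 0.0005 and a limma adjusted p of 0.143, and 43 of all tested genes had a p as small or smaller.

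Susd6 was past the threshold in the authors' deposited table, where its log2 fold change is -0.37 (SE 0.08) and its adjusted p is 0.00646. It was the 1 member called there, in a table that has 0.251% of 13942 genes lower and 0.0430% higher. In the limma fits its adjusted p ran from 0.0794 without control replicate 2 to 1 without both libraries with the most hepatocyte transcripts, while its log2 fold change stayed between -0.42 and -0.32. These fits share most of their libraries, so the small variation in the log2 fold change is not independent support for it. Susd6 was called in the authors' test and in no limma fit.

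Genes of death receptors of the TNF receptor family are p53 targets as well. Tnfrsf10b, the mouse TRAIL receptor, was at 808, 704 and 789.8 in control and at 654, 687 and 632 in STING KO. Its groups were separate by a small margin, with a log2 fold change of -0.22 (limma adjusted p = 0.712, SE 0.07). Eda2r, the X-linked receptor of ectodysplasin A2, was far less abundant, at 84.9, 71.8 and 93.4 in control and at 63.3, 73.7 and 54.2 in STING KO. STING KO replicate 2 lay above control replicate 2, and the log2 fold change of -0.39 had a 95% interval of -0.74 to -0.04 (limma adjusted p = 0.738).

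Bax, Bbc3, Apaf1 and Ei24 had overlapping groups. Bax, the pore-forming BCL-2 family member, was at 1777 ± 130 and 1843 ± 180, and Bbc3, which encodes the BH3-only protein PUMA, was at 216 ± 10.7 and 216 ± 7.17 (SD, n = 3 each). Apaf1, the scaffold of the apoptosome, was at 514 ± 74.2 and 454 ± 80.1 (SD, n = 3 each), with a wide interval of -0.50 to 0.13. Ei24, a protein of the endoplasmic reticulum, varied by 0.349% (SD over mean) between control libraries, the smallest such value of the 31 tested members in control, at 2626 ± 9.16 and 2610.4 ± 17.1 (SD, n = 3 each).

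Fdxr, a ferredoxin reductase of mitochondria, was at 548, 617 and 516 in control and at 638, 600.4 and 664 in STING KO. The groups overlapped through control replicate 2, at a log2 fold change of 0.18 (limma adjusted p = 0.738, SE 0.08). Aen, an apoptosis-enhancing nuclease, was at 874, 814 and 798 in control and at 787, 775 and 756 in STING KO, separate by a small margin at a log2 fold change of -0.10 (limma adjusted p = 0.738). Phlda3, an inhibitor of AKT, Trp53inp1, a p53 cofactor, and Trp53i11 had log2 fold changes of 0.07, 0.10 and -0.27, all with overlap.

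The remaining apoptosis members were barely detected. Pmaip1, which encodes NOXA, was at 4.99, 0 and 0.993 in control and at 1.98, 0 and 0 in STING KO. Perp, a membrane protein of desmosomes and apoptosis, was at 0.998, 0 and 5.96 in control and at 5.94, 0 and 0 in STING KO. Its highest values fell in the same 2 libraries that hold the most hepatocyte transcripts, and the part of those transcripts in this was not tested. Neither gene was tested for change.

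Of the 4 repair genes limma called 0, and the log2 fold change was negative for 3 and positive for 1. Ddb2, the damaged-DNA-binding subunit that starts nucleotide excision repair, was the 1 member above control in every STING KO library, at 91.9, 97.8 and 105 in control and at 121, 139 and 110.5 in STING KO. The means were 98.3 ± 6.74 and 124 ± 14.7 (SD, n = 3 each), 126% of control, with a log2 fold change of 0.32 (SE 0.12, 95% interval 0.06 to 0.59, limma adjusted p = 0.738). Its partner in damage recognition, Xpc, was at 267, 260.4 and 290.1 in control and at 259, 259 and 247 in STING KO, a log2 fold change of -0.09 (limma adjusted p = 0.749).

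Polk, a translesion DNA polymerase, was at 309, 277 and 324 in control and at 264, 263 and 239 in STING KO. The groups were separate, with a log2 fold change of -0.25 (limma adjusted p = 0.738, SE 0.09). Rrm2b, the p53-inducible subunit of ribonucleotide reductase, was at 447 ± 37.5 and 429.6 ± 59.1 (SD, n = 3 each). Its groups were intermingled.

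Per kilobase of exon, the members spanned a wide range that was alike in both groups. Levels were divided by the union of annotated exons in GENCODE M21. Bax (1128 ± 82.5 normalized counts per kb in control, SD, n = 3) and Ccng1 (1102 ± 29.2) were highest and did not differ from each other beyond their spread. Trp53 followed at 797 ± 38.3, then Phlda3 at 658 ± 45.4 and Cdkn1a at 641 ± 42.8, which overlapped, and Ei24 at 539 ± 1.88 (SD, n = 3 each). Mdm2 was at 264 ± 7.67 and Mdm4 at 91.6 ± 5.46, and Ddb2 (35.9 ± 2.46), Eda2r (14.1 ± 1.84) and Trp53i11 (11.6 ± 0.949) were the lowest of the tested members (SD, n = 3 each).

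**Figure D4:**
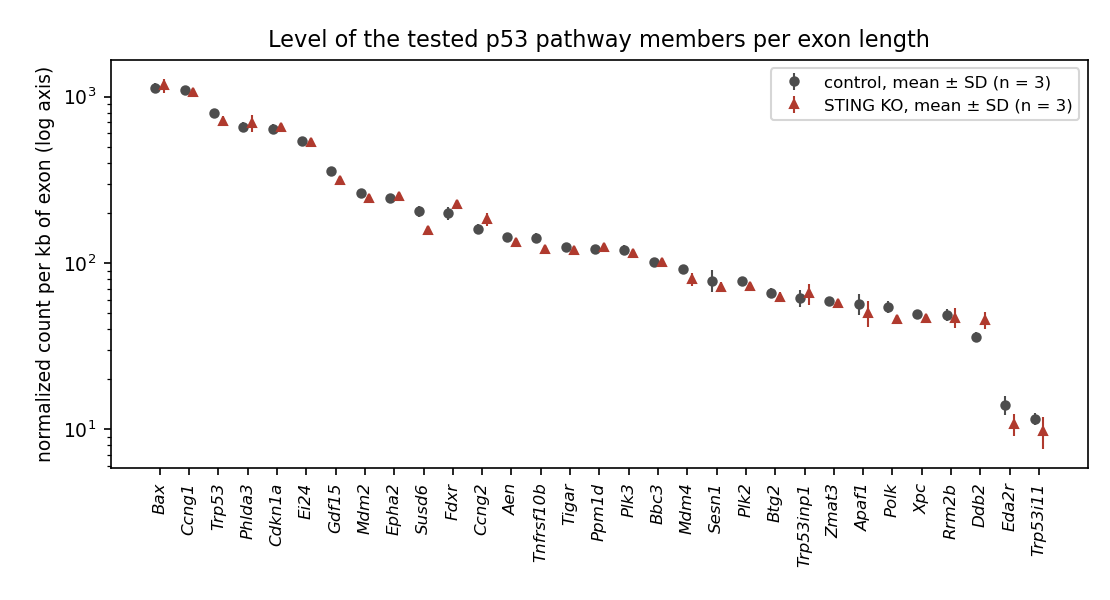
Mean ± SD (n = 3 per group) of normalized counts per kb of exon for the 31 tested members, ordered by their level in control, on a log axis. Levels run from 1128 for Bax to 11.6 for Trp53i11 in control, and the groups lie close together at every gene.

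Control replicate 2 and STING KO replicate 3 were often both the lowest or both the highest of their groups, for the members as for genes in general. Both were lowest for 11 of the 31 tested members (35.5%, beside 27.7% of all tested genes), among them Susd6, Tnfrsf10b, Mdm4, Polk, Eda2r, Apaf1 and Sesn1. Both were highest for 5 (16.1%, beside 26.6%), which were Trp53, Fdxr, Phlda3, Bax and Cdkn1a. Either pattern held for 51.6% of the members and 54.4% of all tested genes. The median exon length was 5891 bases in the first set of members and 2806 in the second, and 6661 and 3050 over all genes with these patterns.

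The number of members at an unadjusted p at or under 0.05 moved with the library left out, as did the share over all genes. Leaving out control replicate 2 gave 8 lower and 2 higher (all genes 7.12% and 5.92%), while leaving out STING KO replicate 2 gave 7 lower and 1 higher (6.37% and 4.21%). Without STING KO replicate 3 there were 5 lower and 2 higher (2.08% and 1.87%). There were 4 lower and 2 higher with control replicate 3 left out (1.52% and 1.80%), and the same numbers with STING KO replicate 1 left out (2.75% and 2.45%). Without control replicate 1, Susd6 was the 1 member at that threshold (1.51% and 1.61%). The log2 fold change of Susd6 was -0.42 with control replicate 2 left out and -0.32 with STING KO replicate 3 left out. The part of this library pattern in the differences between the groups was not tested beyond these fits.

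Other genes of the pathway were read from 4 lists that hold none of the members. limma-voom called 0 genes on any of the 4, and the authors' deposited table has 1 called gene on them, Lif. For comparison, limma called 0.258% of all tested genes lower and 0% higher. At an unadjusted p at or under 0.05, 3.18% were lower and 3.20% higher. Of 28 tested upstream and partner genes limma called 0, and 0 were at an unadjusted p at or under 0.05. The smallest p was that of Atr, the kinase that senses replication stress, at 482, 433 and 465 in control and at 423, 432 and 359 in STING KO (a log2 difference of -0.19, limma adjusted p = 0.738). The median of this list was -0.057. The nearest libraries of Atr, at 433 and 432, almost touched.

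Of 38 further p53 target genes, 1 was called lower and 0 higher (all tested genes 0.258% and 0%), and the median was 0.017. The called gene was Lif, an interleukin-6 type cytokine that NF-kB also induces. The list was chosen with earlier results of these data known, so this call is not independent evidence about p53 targets. Lif was at 124, 147 and 161 in control and at 81.2, 85.6 and 82.3 in STING KO. The log2 difference was -0.78 (limma adjusted p = 0.0359, SE 0.12). The groups were well separate, and Lif is also called in the authors' deposited table (adjusted p = 0.0332). Of the 6 limma fits that left out 1 library it was called in 1, without control replicate 1 (adjusted p = 0.0387), and the other 5 gave adjusted p of 0.0599 to 0.215, at log2 fold changes of -0.81 to -0.70. It was also not called without both libraries with the most hepatocyte transcripts (log2 fold change -0.68, limma adjusted p = 0.771), with no minimum (0.1) or by limma-voom (0.0556). At an unadjusted p at or under 0.05 there were 2 lower and 2 higher genes on this list (all tested genes 3.18% and 3.20%).

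Cell cycle genes that p53 represses through p21 and the DREAM complex had values close to 0. Nek2, also on this list, was at 0 in every library and was not tested. Of 24 tested genes limma called 0, and 0 were at an unadjusted p at or under 0.05. All 24 had intervals within 1.5-fold, and the log2 fold changes ran from -0.10 to 0.08 with a median of 0.005. The smallest p was that of Cdc20, an activator of the anaphase-promoting complex, at 2858, 2999 and 2652 in control and at 3011, 2857 and 3102 in STING KO. The groups overlapped, with a log2 fold change of 0.08 (limma adjusted p = 0.744).

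Among 18 tested CDK inhibitors, G1 cyclins and pocket proteins limma called 0. At an unadjusted p at or under 0.05, 1 was lower and 1 higher (all tested genes 3.18% and 3.20%). Cdk6, a kinase of G1 phase, was at 779, 745 and 776 in control and at 644, 673 and 597 in STING KO. The groups were separate, with a log2 fold change of -0.27 (limma adjusted p = 0.368, SE 0.06). The one at the other end was Cdkn1c, the CDK inhibitor p57, at 149.8, 158 and 148 in control and at 182, 174 and 215 in STING KO, a log2 difference of 0.32 (limma adjusted p = 0.702, SE 0.10). Neither passed the threshold over all genes, and Cdkn1c was named after its values were seen.

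**Figure D5:**
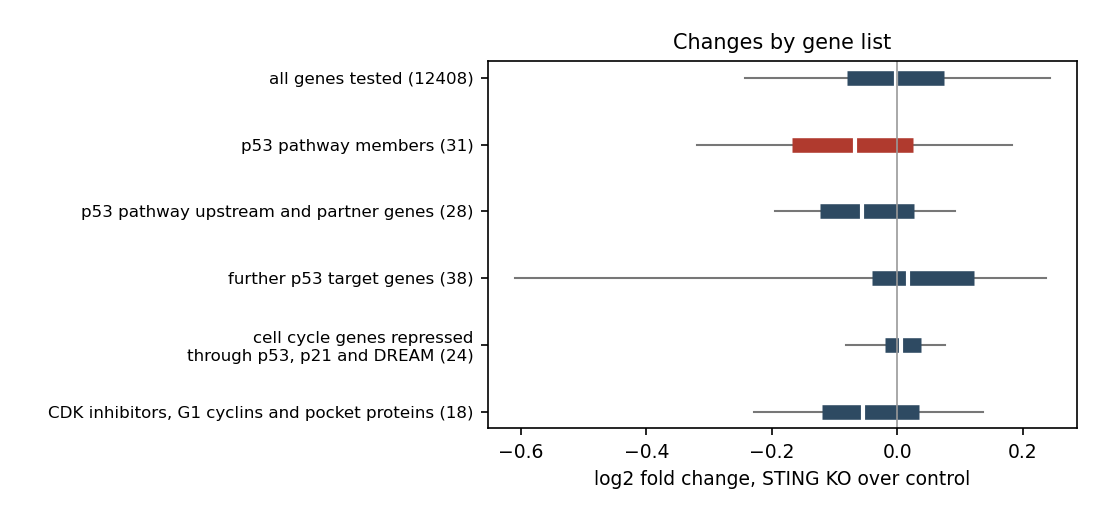
Distribution of the log2 fold change for all 12408 tested genes, the 31 tested members (red) and the 4 pathway lists, with the number of genes in brackets. Thick bars span the middle quartiles, thin lines the 5th to 95th percentile, and white ticks mark medians, at -0.067 for the members and 0.005 for the repressed cell cycle genes.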

How the data were processed

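Per the submitters' processing notes, the tools named are DESeq2 1.4.5, RSEM 1.2.12, Bowtie2 2.2.5 and HISAT2 2.0.4 and the builds are GRCm38 and mm10, in no stated order or role. The annotation and the strand setting were not given in the sources used here, and overlapping or near-identical genes may share reads. The deposited signal of each sample is taken to be a gene count that the authors divided by a size factor. This was read from the values, since all of them up to 60 were whole multiples, within 0.01, of a step of 0.990 to 1.004. Per the file headers, the authors' comparison has a log2 fold change with its error, a Wald score and p-values, raw and adjusted.

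The first row of each of 27507 identifiers was kept. limma 3.58.1 (R 4.3.3) was fitted to all 6 samples with no covariate, on log2 values after adding 0.1, which understates changes of low genes. It was tested on simulated counts with independent libraries and the same spread setting for every gene. That check does not cover the library patterns described above. Count tests planned as alternatives were not run, because steps so close to 1 could not be accepted as proof of whole reads. GENCODE M21 (GRCm38) gave coordinates and exon lengths. Members and lists were chosen with earlier results of these data known. Values in every sample were given for Trp53, Mdm2 and Cdkn1a, for members at an unadjusted p at or under 0.05 or without overlap, for those under the minimum, and for the called gene, otherwise the gene with the smallest p, of each list.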

Additional observations from a re-analysis of the deposited data

How the results depend on the processing

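Of 464 values of tested members under 15 alternatives, 1 was past the threshold (Susd6 in the authors' deposited test, where 1 member was called, and over all genes 35 lower and 6 higher) and 14 had another sign than the main value. These 14 fell in 10 members, each with a main log2 fold change no further from 0 than 0.07. Sting1 kept its sign and its call in all of them. The count of lower genes, 32, was 18 with the replicate block, 13 without both libraries with the most hepatocyte transcripts, and 21 to 28 when 1 library was left out, with 21 without control replicate 1. The block is not set by a shared source: deviations of samples with the same number correlated at -0.183, -0.180 and -0.488. With the block, 3 members were lower and 1 higher at an unadjusted p at or under 0.05 (all genes 1.57% and 1.51%), and Lif was not called (adjusted p = 0.17). Upper-quartile scaling moved the median of all genes by 0.02 and TMM by 0.00. limma-voom was chosen after seeing the data. edgeR and DESeq2 were not run. Pmaip1, Perp and Cdkn2a were under the minimum and were not tested. Depth limits what a 0 shows, which for Cdkn2a allows up to 3 counts per library if its reads are counted where present. Whether they are was not tested.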
